A study of Homo sapiens with 5 samples.

Results

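N87-TR1, a trastuzumab-resistant gastric cancer cell line, was compared with N87-TR2 and N87-TR4, which carry the same resistance label, to ask in which genes resistant lines named after one sensitive line differ. The comparison covered every gene with a probe detected (detection p under 0.01) on at least 1 of these 3 arrays, which left 11720 of the 20044 genes that have a named probe. The study held 5 Illumina BeadChip arrays, 1 each for the sensitive line NCI-N87 and each resistant line, N87-TR1 to N87-TR4. All were human gastric cancer cells grown in the same medium and taken for total RNA before confluence. The labels do not say how the resistant lines were selected, whether they are clones, or whether they were derived separately. N87-TR3 was left out of the comparison by its definition, and its levels, like those of NCI-N87, are given only beside the others.

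Trastuzumab is an antibody against ERBB2 (HER2), a receptor tyrosine kinase that drives growth in gastric cancers in which its gene is amplified. Resistance to it is known from loss of the receptor, from signalling through other receptors and their ligands, and from a move of epithelial cells towards a mesenchymal state, in which E-cadherin and keratins give way to N-cadherin and vimentin. Lines made resistant from one parent can reach that state with different sets of genes active.

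Levels below are background-corrected, quantile-normalised log2 intensities, so that a difference of 1 is 2-fold. All 3 lines had ERBB2 far below the sensitive line, at 10.22 in N87-TR1, 10.73 in N87-TR2 and 10.54 in N87-TR4, where NCI-N87 had 15.90 and N87-TR3 had 10.31. N-cadherin (CDH2) was at 12.72, 12.90 and 12.82 in N87-TR1, N87-TR2 and N87-TR4 and an undetected 5.37 in NCI-N87. SMAD4, the shared transducer of TGF-beta signals, was at 9.99, 10.29 and 10.39 in the same order, against an undetected 5.42 in NCI-N87. The epithelial markers fixed as a check on the gastric cancer label, EPCAM, CDH1, KRT8, KRT18 and KRT19, were detected in N87-TR1 except KRT19, and EPCAM was lower in all 3 lines (10.17, 8.85 and 10.49) than in NCI-N87 (13.95). KRT18, in contrast, was higher in all 3 (8.82, 8.36 and 8.31) than in NCI-N87 (7.77), and the levels of CDH1 and KRT8, which differed between the 3 lines, are given with the epithelial genes. In ERBB2, CDH2 and SMAD4 the 3 lines lay close to each other and far from NCI-N87, and the labels do not account for how they came to differ from it.

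Of markers of other cells a culture could hold, 2 of 11 fibroblast, 4 of 14 leukocyte and 1 of 10 endothelial genes were detected on any of the 3 arrays. The summed level of the fibroblast genes (COL1A1 and PDPN) was 11.51 in N87-TR1, 10.99 in N87-TR2 and 11.38 in N87-TR4. The leukocyte sum was 12.34, 11.96 and 12.11 in that order, nearly all of it CD68, and the endothelial sum, from ESAM alone, was 6.23, 6.40 and 6.04. ESAM was below the lowest detected level of the array in N87-TR1 (6.33) and N87-TR4 (6.17). The defining markers PTPRC, CD3E, PECAM1, VWF, DCN and COL1A2 were not detected on any of the 3 arrays. Median raw signals were 142.1, 148.7 and 158.2, and the numbers of detected genes were 10749, 10894 and 11069, in N87-TR1, N87-TR2 and N87-TR4. In bulk RNA, fewer cells of a type and less RNA per cell cannot be told apart.

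With 1 array against 2, a gene was called where N87-TR1 lay outside the range of the reference lines N87-TR2 and N87-TR4, at least 2-fold from the nearer of them, and farther from it than they lay from each other. By this rule 188 genes were higher in N87-TR1, 1.6% of those tested, and 171 were lower, 1.46%, so that 3.06% were called in either direction. The median distance of the called genes to the nearer reference line was 2.42-fold for the higher and 2.31-fold for the lower ones, and 5 higher and 6 lower genes stood at least 4-fold from it. The counts changed with the references and the background correction: they were 387 and 397 without N87-TR2, 561 and 410 without N87-TR4, 68 and 84 with N87-TR3 as a further reference, and 44 and 31 without background correction. Of the higher genes 82 were detected on all 3 arrays, 73 had no probe above the detection limit in either reference line and 33 were detected in 1 of them or in part. Of the lower genes 90 were detected on all 3, 74 had no probe above the limit in N87-TR1 and 7 were detected in part. Just inside the rule, FFAR3 was 1.00 above and ZNF532 was 1.00 below the nearer line on the log2 scale, while KAT5 at -0.9995 and SMG1P1 at 0.998 fell just outside.

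Neither direction rests on a statistical call. Fitted across all 11720 genes, limma's moderated two-sided test passed 0 genes at a Benjamini-Hochberg adjusted p under 0.05, with a lowest adjusted p of 0.368, while 1298 genes (11.1%) had an unadjusted p under 0.05. The fit had 1 residual degree of freedom, the gap between N87-TR2 and N87-TR4, and assumed that the lone N87-TR1 array varies as they do. For a single gene an exact permutation test over 3 arrays cannot go below p = 0.333. What spread the p-values see is that between single arrays of these lines, and it could be technical.

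The reference lines were nearer to each other than to N87-TR1. At least 2-fold differences were found for 971 genes between N87-TR1 and N87-TR2 (561 higher and 410 lower in N87-TR1) and for 784 between N87-TR1 and N87-TR4 (387 higher and 397 lower), against 457 between N87-TR2 and N87-TR4. These 3 counts share arrays and are given side by side with no test. The median absolute difference over genes was 0.32, 0.31 and 0.25 on the log2 scale for the same pairs. The plot of each gene's distance from the references against their own gap shows the called genes outside the limits of the rule.

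**Figure D1:**
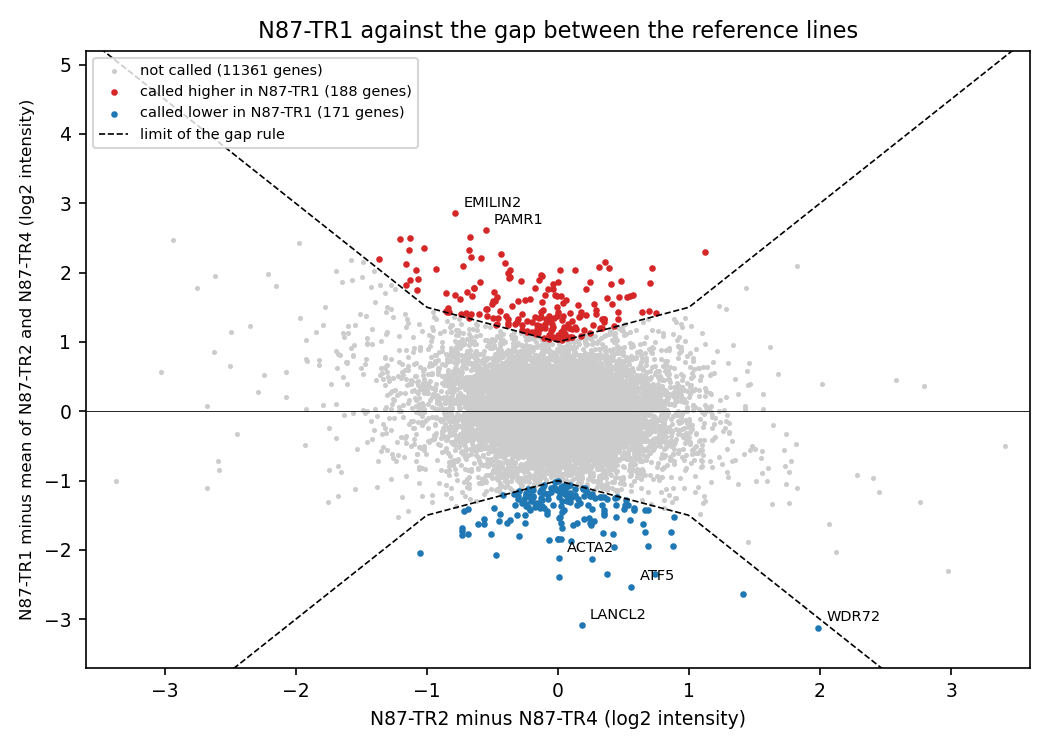
Each point is 1 of the 11720 genes tested, and genes beyond the limits of the axes, NEFM among them, are not shown. The horizontal axis gives N87-TR2 minus N87-TR4 and the vertical axis N87-TR1 minus the mean of those lines, both in log2 intensity, and dashed lines mark the limit of the gap rule. The 188 genes called higher (red) and 171 called lower (blue) lie outside the limits, with EMILIN2 at the top and LANCL2 and WDR72 at the bottom.

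EMILIN2, an extracellular glycoprotein of elastic fibres, was farthest above both references. It was at 10.41 in N87-TR1, 7.16 in N87-TR2 and 7.94 in N87-TR4, with 8.60 in N87-TR3 and 10.44 in NCI-N87. N87-TR1 stood at the level of the sensitive line, 5.51-fold above the nearer reference and 7.23-fold above their mean (log2 difference 2.85, SE 0.40, limma adjusted p = 0.368). CRABP2, which carries retinoic acid to its nuclear receptors, was likewise near NCI-N87 in N87-TR1 and below it in the other resistant lines, at 10.60 in N87-TR1, 7.74 in N87-TR2 and 8.41 in N87-TR4, with 8.36 in N87-TR3 and 10.80 in NCI-N87 (4.55-fold above the nearer reference).

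PAMR1, a secreted protein with a serine protease-like domain, was at 9.83 in N87-TR1, 6.94 in N87-TR2 and 7.50 in N87-TR4, with 8.49 in N87-TR3, and was not detected in NCI-N87 (4.62). It was 5.04-fold above the nearer reference, and here N87-TR1 departed from both the references and NCI-N87. PPP2R2C, a regulatory subunit of the phosphatase PP2A, was at 10.05 in N87-TR1, 7.56 in N87-TR2 and 7.99 in N87-TR4 (4.15-fold above the nearer), with 5.01 in NCI-N87 and 8.91 in N87-TR3. For PAMR1 and PPP2R2C, N87-TR3 lay between N87-TR1 and the references, and neither was called once N87-TR3 also counted as a reference.

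FSCN1 (fascin), which bundles actin filaments in cell protrusions, was at 13.14 in N87-TR1 and at 11.45, 11.48 and 11.58 in N87-TR2, N87-TR4 and N87-TR3, against 13.65 in NCI-N87. The 3 other resistant lines lay within a narrow range for this gene, and N87-TR1 was 3.16-fold above N87-TR4. TUBB3, the beta-tubulin isotype typical of neurons, was at 10.21 in N87-TR1, 8.47 in N87-TR2 and 8.23 in N87-TR4, with 9.97 in N87-TR3 and 11.10 in NCI-N87 (3.33-fold above the nearer reference). CALCB, a calcitonin gene-related peptide, was at 11.41 in N87-TR1, 9.68 in N87-TR2 and 8.55 in N87-TR4, with 11.41 in N87-TR3, so that the resistant lines split into pairs. It was not detected in NCI-N87 (4.95). CCN3, a secreted matricellular protein, was at 8.28 in N87-TR1, 6.62 in N87-TR2 and 6.40 in N87-TR4. It was not detected in N87-TR3 (6.42), and all of these were below the 11.10 of NCI-N87.

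The rest of the 15 leading genes measured on all 3 arrays were TMEM100, MPG, C2orf48, PRRT2, IRF8, PDZD4 and OR2A42, between 2.84-fold and 3.66-fold above the nearer reference. MPG, a DNA glycosylase of base excision repair, was at 9.03 in N87-TR1, 6.85 in N87-TR2 and 7.23 in N87-TR4. It was not detected in N87-TR3 (6.66) or NCI-N87 (5.14). IRF8, a transcription factor best known in myeloid and B cells, was at 9.03 in N87-TR1, 6.87 in N87-TR2 and 7.46 in N87-TR4, with 6.89 in N87-TR3. Of the 4 detected leukocyte markers 1, CORO1A (7.98 against 6.55 and 6.55), was called higher, and PTPRC was not detected. OR2A42 has a near-identical copy, OR2A1, and signal between them cannot be assigned.

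**Figure D2:**
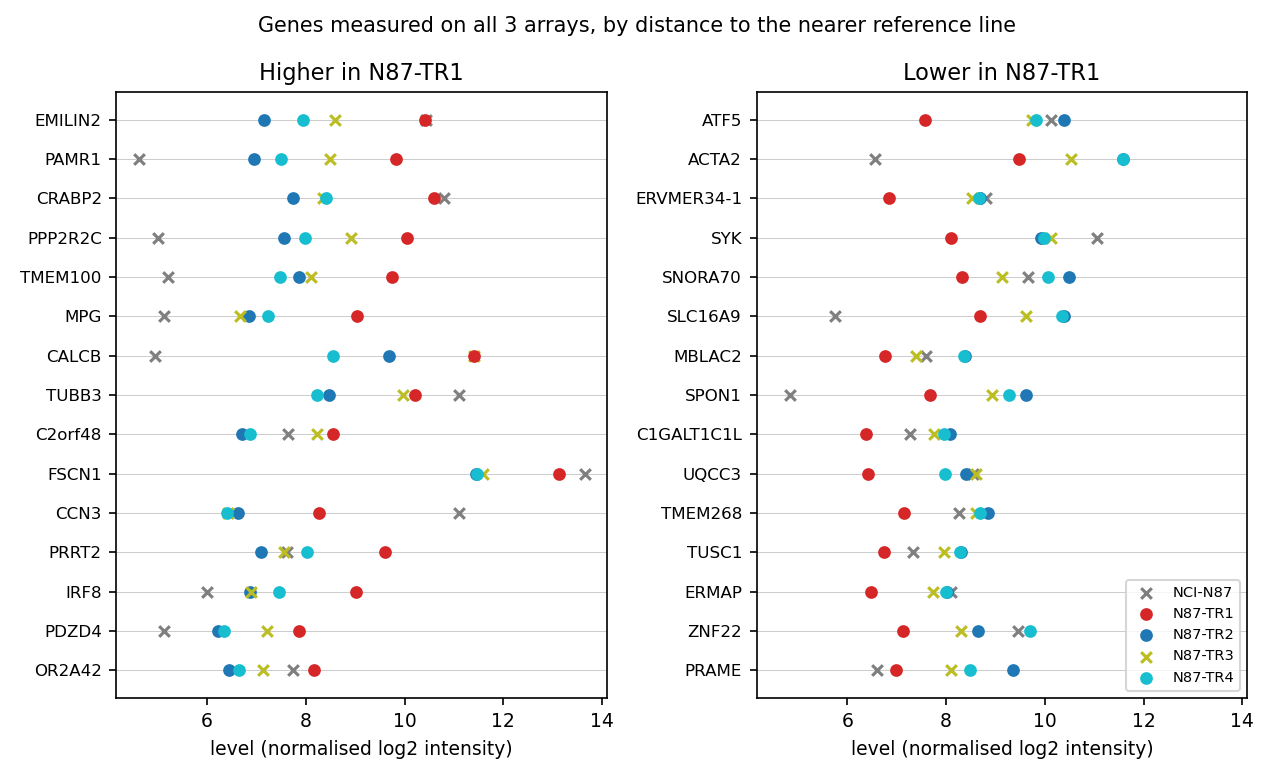
Levels (normalised log2 intensity, horizontal axis) in the 5 lines of the 15 genes farthest above (left) and the 15 farthest below (right) both reference lines, among genes detected on all 3 arrays. Circles are the 3 arrays compared and crosses are NCI-N87 and N87-TR3; 1 point is 1 array. N87-TR1 (red) lies outside the range of N87-TR2 and N87-TR4 in every row, while N87-TR3 often falls between them.

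For genes with no probe above the detection limit in either reference, only a lower bound on the difference can be given. The bound sets the level in N87-TR1 against the mean over both reference arrays of the lowest level among detected probes, or of the probe's own level where that is higher, so it is a bound against the mean of the references and not against each. APOE, the apolipoprotein that carries cholesterol between cells, was at 7.97 in N87-TR1, at least 3.43-fold higher than the mean of the references, and its measured values of 5.10 in N87-TR2 and 6.12 in N87-TR4 were not above background. KCNH2, a potassium channel subunit, was at 7.92 and at least 3.31-fold higher, and NIM1K, a kinase of the AMPK-related family, was at 7.93 and at least 3.34-fold higher. CA4, a membrane-bound carbonic anhydrase, was at least 3.11-fold higher, and HES2, a transcription repressor of the hairy and enhancer of split family, at least 2.81-fold.

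CDH3 (P-cadherin) was at 7.78 in N87-TR1, at least 3.01-fold higher than the mean of the references, where 6.20 and 6.14 were not above background, and 11.87 in NCI-N87. PHLDA2, an imprinted gene that restrains growth of the placenta in mice, was at 7.55 and at least 2.57-fold higher, with 7.20 in N87-TR3 and 8.28 in NCI-N87. CCM2L, a vascular adaptor protein, was at least 2.61-fold higher. N87-TR3 detected 120 of the 188 higher genes and NCI-N87 detected 88. N87-TR3 lay between N87-TR1 and the nearer reference in 124 of them, beyond N87-TR1 in 18, and at the reference side in 46. These positions use the levels whether or not N87-TR3 detected the gene, so some rest on background values. Neither the positions nor the detection counts have a share over all genes beside them, so they are no result about N87-TR3.

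Among the genes lower in N87-TR1, ATF5, a transcription factor of the stress response to amino acid shortage and of mitochondria, was farthest from the nearer reference of those measured on all arrays. It was at 7.57 in N87-TR1 and at 10.38, 9.82, 9.75 and 10.14 in N87-TR2, N87-TR4, N87-TR3 and NCI-N87. The other 4 lines lay close together, and N87-TR1 was 4.75-fold below the nearer reference (log2 difference to their mean -2.53, SE 0.34, limma adjusted p = 0.368). SYK, a cytoplasmic tyrosine kinase of immune and epithelial cells, had the same shape, at 8.10 in N87-TR1, 9.92 in N87-TR2 and 9.99 in N87-TR4, with 10.12 in N87-TR3 and 11.06 in NCI-N87. It was 3.54-fold below the nearer reference.

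ACTA2, smooth muscle actin and a usual marker of myofibroblasts, was at 9.47 in N87-TR1 and 11.59 in both N87-TR2 and N87-TR4, with 10.52 in N87-TR3 and 6.56 in NCI-N87. The gap between the references was 0.006, and N87-TR1 was 4.32-fold below them while still above NCI-N87. SLC16A9, a carnitine and monocarboxylate carrier, had the same order (8.68 in N87-TR1, 10.38 in N87-TR2 and 10.35 in N87-TR4, with 9.62 in N87-TR3 and an undetected 5.75 in NCI-N87). SPON1, a secreted matrix protein of the spondin family, was at 7.68 in N87-TR1, 9.62 in N87-TR2 and 9.27 in N87-TR4, with 8.92 in N87-TR3, and was not detected in NCI-N87 (4.84). These genes were high in all resistant lines against NCI-N87, and least so in N87-TR1.

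PRAME, a cancer-testis antigen, was at 6.98 in N87-TR1, 9.36 in N87-TR2 and 8.48 in N87-TR4, with 8.10 in N87-TR3 and 6.61 in NCI-N87. The remaining leading genes were ERVMER34-1, an envelope gene of an endogenous retrovirus, SNORA70, MBLAC2, C1GALT1C1L, UQCC3, TMEM268, TUSC1, ERMAP and ZNF22, between 2.85-fold and 3.54-fold below the nearer reference. ERMAP is uncertain, because its other detected probe differed the other way (mean difference 1.00 on the log2 scale). Of the 33 lower genes with another detected probe, 30 had all of those probes on the same side, and of 24 such higher genes 21 did.

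LANCL2, a relative of the bacterial lanthionine synthetases that binds glutathione, was not detected in N87-TR1 (5.27) but was at 8.44 in N87-TR2, 8.26 in N87-TR4, 8.40 in N87-TR3 and 9.58 in NCI-N87. It was at least 4.06-fold lower in N87-TR1 and was below the limit in that line alone. For genes not detected in N87-TR1 the bound sets the mean of the references against the lowest detected level of the N87-TR1 array. STING1, the adaptor that turns cytosolic DNA sensing into an interferon response, was likewise not detected in N87-TR1 (5.74) and was at 8.27 in N87-TR2, 7.90 in N87-TR4, 7.73 in N87-TR3 and 8.98 in NCI-N87, at least 3.38-fold lower. WDR72, a protein with WD repeats known for its role in tooth enamel, was at least 6.39-fold below the mean of the references (an undetected 5.88 against 10.00 and 8.01), but the references differed by 1.99 between themselves and the call was lost in 4 of 11 other settings.

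Bounds for FAM50B, ADI1, ZNF35, VRK2 and SNORA79 lay between 2.41-fold and 3.07-fold. VRK2 was not detected in N87-TR3 (5.57) either, and its call was lost in 4 of 11 other settings. FAM50B, an imprinted gene, was not detected in N87-TR1 (6.01) or NCI-N87 (4.81) and was at 8.29 in N87-TR2 and 7.60 in N87-TR4. NCI-N87 detected 117 of the 171 lower genes and N87-TR3 detected 126. N87-TR3 lay between N87-TR1 and the nearer reference in 95, beyond N87-TR1 in 21 and at the reference side in 55. As for the higher genes, levels were used whether or not detected, with no share over all genes beside these counts.

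Upstream sequence is shown for the 5 genes farthest from the references among those measured on all 3 arrays (EMILIN2, PAMR1 and CRABP2 higher, ATF5 and ACTA2 lower), so that the contrast between CpG-rich and CpG-poor starts is visible. Each is the 250 bases before the RefSeq gene start in GRCh38.p14, 5′ to 3′ on the gene's strand, with CG in capitals.
EMILIN2, chr18:2846756-2847005, plus strand: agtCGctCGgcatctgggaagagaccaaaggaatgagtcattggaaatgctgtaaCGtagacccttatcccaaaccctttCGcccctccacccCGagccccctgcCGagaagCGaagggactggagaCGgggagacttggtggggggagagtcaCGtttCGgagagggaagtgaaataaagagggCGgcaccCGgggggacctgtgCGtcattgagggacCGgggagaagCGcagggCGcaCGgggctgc
PAMR1, chr11:35530301-35530550, minus strand: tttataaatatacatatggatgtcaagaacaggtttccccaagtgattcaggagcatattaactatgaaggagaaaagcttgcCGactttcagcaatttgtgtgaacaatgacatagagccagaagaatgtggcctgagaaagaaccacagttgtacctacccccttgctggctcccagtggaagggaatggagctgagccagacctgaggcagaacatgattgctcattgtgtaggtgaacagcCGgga
CRABP2, chr1:156705785-156706034, minus strand: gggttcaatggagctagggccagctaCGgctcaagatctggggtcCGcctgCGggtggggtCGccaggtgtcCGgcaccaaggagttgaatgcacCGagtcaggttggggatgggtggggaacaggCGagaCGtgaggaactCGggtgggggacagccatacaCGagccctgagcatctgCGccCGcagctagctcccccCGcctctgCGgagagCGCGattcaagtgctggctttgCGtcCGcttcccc
ATF5, chr19:49928656-49928905, plus strand: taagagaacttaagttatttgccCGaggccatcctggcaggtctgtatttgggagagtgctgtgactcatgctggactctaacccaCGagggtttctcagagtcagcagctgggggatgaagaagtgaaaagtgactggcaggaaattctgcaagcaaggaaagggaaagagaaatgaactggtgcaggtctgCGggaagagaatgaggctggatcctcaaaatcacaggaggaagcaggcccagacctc
ACTA2, chr10:88991338-88991587, minus strand: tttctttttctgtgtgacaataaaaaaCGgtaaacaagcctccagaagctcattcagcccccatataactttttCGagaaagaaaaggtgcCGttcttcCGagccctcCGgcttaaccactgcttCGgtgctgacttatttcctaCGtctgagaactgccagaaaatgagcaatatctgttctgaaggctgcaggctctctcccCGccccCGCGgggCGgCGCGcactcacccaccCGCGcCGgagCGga
EMILIN2, CRABP2 and ACTA2 held 17, 18 and 17 CG in these windows, while PAMR1 held 2 and ATF5 held 3. Windows were matched for 9428 of the genes tested, with a median of 21 CG and a GC content of 64.8%. The 135 higher genes with a window had medians of 21 CG and 68% GC, and the 126 lower genes 17 CG and 60% GC. The letters TATAAA, searched on both strands, occurred in 5.57% of all windows, 11.1% of those of higher genes and 4.76% of those of lower genes. PAMR1 holds a match at the far end of its window, and a match describes letters only.

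Gene lists chosen for pathways of this setting are described by their counts and medians. Their medians are set beside the median over all genes tested, -0.0065 on the log2 scale, and their calls beside the 1.6% and 1.46% over all genes. Of all genes tested, 36.4% lay above both references and 37.8% below both, the shares to hold beside each list's counts. Of the epithelial genes 11 were tested, 7 lay above both references and 2 below both, and their median difference was 0.50. E-cadherin (CDH1) was called higher, at 9.95 in N87-TR1, 8.11 in N87-TR2 and 8.61 in N87-TR4, with 7.62 in N87-TR3 and 13.10 in NCI-N87. KRT8, a simple-epithelium keratin, was at 9.07 in N87-TR1, 8.84 in N87-TR3 and 7.13 in N87-TR4, was not above background in N87-TR2 (6.01), and was at 13.86 in NCI-N87. CDH3 was also called higher, and MARVELD2, a protein of tricellular tight junctions, was called lower (an undetected 5.55 in N87-TR1, 6.62 and 6.75 in the references), a call lost in 6 of 11 other settings.

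Of 15 mesenchymal genes tested, 6 lay above both references and 5 below both, with a median of 0.14, and the 1 call was ACTA2, lower, as given above. Vimentin (VIM) was at 13.78 in N87-TR1, 14.37 in N87-TR2 and 14.23 in N87-TR4, and neither it nor CDH2 was called. COL5A1 (8.85, 7.29 and 7.91), the transcription factors SNAI2 (7.41, 6.01 and 6.74) and TWIST2 (7.75, 6.96 and 7.02), and TAGLN (9.26, 8.58 and 8.47) were above both references without a call. N87-TR1 thus held more E-cadherin signal than the references, while all 3 stayed far below NCI-N87 in CDH1.

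Neuronal genes had the most calls in one direction of the 51 lists, though not the largest share, as 3 of 11 epithelial genes were called higher. Of 30 neuronal genes tested, 4 were called higher and 0 lower, with 16 above both references, 7 below both and a median of 0.32. Besides TUBB3 the called genes were SYT11, a synaptotagmin of vesicle traffic, CRMP1, a semaphorin response protein, and SYP, a synaptic vesicle protein. SYT11 was at 11.95 in N87-TR1, 10.19 in N87-TR2 and 10.93 in N87-TR4, with 11.36 in N87-TR3. CRMP1 was at 8.27 in N87-TR1 and 6.77 in N87-TR4 and was not above background in N87-TR2 (5.69), with 7.82 in N87-TR3. SYP was at 6.74, at least 1.47-fold above references that were not above background, and N87-TR3 was higher still at 8.33. For TUBB3, N87-TR3 was at 9.97, and all 4 calls were lost with N87-TR3 as a further reference. The calls of SYP and SYT11 were lost in 4 of 11 and 4 of 12 other settings. Members that were not called went both ways, from INSM1 (11.68, 9.19 and 10.54), a neuroendocrine transcription factor, to SYT1 (5.91, 7.60 and 6.89).

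NEFM, a neurofilament subunit, split the references themselves, at 12.95 in N87-TR1, 13.26 in N87-TR2 and 5.74 in N87-TR4. Of 24 genes of the NOTCH pathway, 16 lay above both references and 5 below both, with a median of 0.50. DLL1, a NOTCH ligand, was called higher at 9.70 in N87-TR1 against 7.93 in N87-TR2 and 8.63 in N87-TR4, a call lost in 5 of 12 other settings, and HES2, described above, was the other call. The ligands DLL3 (10.32, 9.37 and 9.45) and JAG2 (10.88, 10.27 and 9.78) and the targets HEY2 (10.29, 9.33 and 9.53) and HES5 (12.84, 10.17 and 11.66) were above both references without a call. NOTCH2, a receptor, and RBPJ, the DNA-binding partner of the cleaved receptor, were below both (7.81 against 8.12 and 8.30, and 9.01 against 9.41 and 9.75).

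The targets of p53 gave the lowest median of the 8 lists plotted, -0.41 over 26 genes, with 17 below both references and 4 above both. PLK2, a kinase induced by p53, was the only call, not detected in N87-TR1 (4.87) and at 6.60 in N87-TR2 and 6.36 in N87-TR4. It was not detected in N87-TR3 (5.19) either and was at 8.08 in NCI-N87. Its bound of at least 1.11-fold is small, and its call was lost in 4 of 11 other settings. SESN1 (9.96, 10.83 and 10.70), PERP (10.19, 11.04 and 10.93) and the death receptor TNFRSF10B (11.98, 12.75 and 12.73) were lower without a call. BAX (10.93, 10.11 and 10.24) and GADD45A (11.30, 10.81 and 10.74) were on the other side, so the list did not lie one way.

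Genes of amino acid supply and of the unfolded protein response had a median of -0.27 over 42 tested, with 20 below both references and 4 above both. The calls were ATF5 and SLC7A11, the cystine carrier, which was not detected in N87-TR1 (5.62) and was at 6.91 and 6.80 in the references. SLC7A11 was at least 1.44-fold lower and was not detected in N87-TR3 (6.65) either. Its call was lost in 3 of 11 other settings. TRIB3 (9.43, 11.30 and 10.17), PSAT1 of serine synthesis (11.83, 12.95 and 12.40) and SLC1A4 (6.50, 7.34 and 7.16) were below both without a call, while the endoplasmic reticulum proteins SDF2L1 (12.22, 11.63 and 11.44) and MANF (12.12, 10.82 and 11.58) were above both.

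Of 38 genes of sterol and lipid metabolism, 20 lay below both references and 7 above both, with a median of -0.20. Called lower were SQLE, the squalene epoxidase, and HMGCS1, the synthase before the rate-limiting step of cholesterol synthesis. SQLE was at 11.27 in N87-TR1, 12.62 in N87-TR2 and 13.18 in N87-TR4, with 10.96 in N87-TR3 and 12.22 in NCI-N87. HMGCS1 was at 11.05, 12.13 and 12.84, with 11.73 in N87-TR3 and 11.24 in NCI-N87. Both calls were lost with N87-TR3 as a further reference. IDI1 (9.46, 10.33 and 11.47), CYP51A1 (9.10, 10.03 and 10.31) and the regulator SREBF1 (7.55, 8.91 and 8.45) were also lower without a call. Called higher were APOE and FADS3, a member of the fatty acid desaturase family. The call of FADS3 was lost in 4 of 11 other settings. ABCG1, a sterol exporter, was at 8.10 against 6.88 and 7.33, above both references without a call.

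Collagens and matrix proteins had a median of 0.36 over 30 tested, with 19 above both references and 5 below both, and 1 call, COL6A2 (8.44, 7.14 and 7.41). That share, 3.33%, is near the 3.06% over all genes, and the call was lost in 5 of 12 other settings. Cell cycle genes gave 0 calls of 45, with 26 below both references, 10 above both and a median of -0.15, and MKI67, the proliferation marker, was at 7.55, 7.47 and 7.22. Ribosomal proteins gave 0 calls of 18 and a median of 0.06. The plot of list members shows that most points of each list lie within 1 of 0 on the log2 scale.

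**Figure D3:**
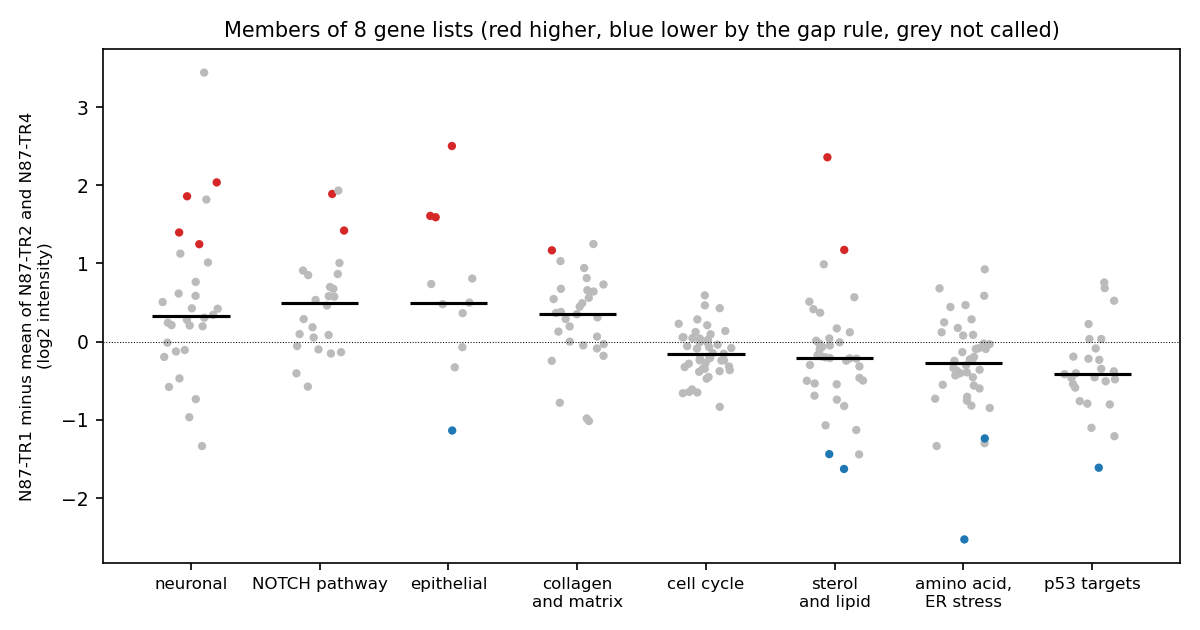
Each point is a tested gene of 1 of 8 lists, placed by N87-TR1 minus the mean of N87-TR2 and N87-TR4 (log2 intensity). Red and blue points were called higher and lower by the gap rule, grey points were not called, and bars are medians, from 0.50 for the NOTCH pathway and the epithelial genes to -0.41 for p53 targets.

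Of a list of ERBB receptors, their ligands, regulators and genes beside ERBB2 on its chromosome, 13 genes were tested and 2 were called, both higher. ERBB3, the partner of ERBB2 with little kinase activity of its own, was at 8.22 in N87-TR1, 6.36 in N87-TR2 and 7.19 in N87-TR4. ERBB3 was not detected in N87-TR3 (6.33) and was at 10.05 in NCI-N87. The call was lost in 4 of 12 other settings, and its other probe differed by 0.39 on the log2 scale. TGFA, a ligand of EGFR, was at 6.36 in N87-TR1, was not above background in the other resistant lines and was at 10.05 in NCI-N87. Its level in N87-TR1 was near the lowest detected level of that array, 6.33. The bound for TGFA, at least 1.12-fold, is small, and its call was lost in 4 of 11 other settings. EGFR itself (8.16, 8.86 and 7.96) lay within the range of the references, and ERBB2 and the receptor MET (9.76, 10.49 and 10.19) were below both without a call.

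The calls in other signalling lists were 0 higher and 1 lower of 30 receptor kinases, 1 and 0 of 32 PI3-kinase genes, 1 and 0 of 13 FGF genes, 2 and 1 of 21 MAP kinase targets and 1 and 1 of 31 apoptosis genes. The first 2 of these shares are near the 3.06% over all genes and are no result about those lists. FGFR4 was 2.66-fold above the nearer reference (8.64, 7.23 and 6.96) while FGFR3 was high in all 3 lines (13.03, 12.52 and 12.90) and not called. EPHA3, an ephrin receptor, was lower at 7.03 against 8.35 and 8.15. PIK3CD, a catalytic subunit of PI3-kinase, was higher at 8.25 against 6.86 and 7.14, a call lost in 4 of 12 other settings. Of immediate-early genes downstream of MAP kinases, DUSP1, a phosphatase of those kinases, was higher (12.01, 10.59 and 10.72) and EGR1, a transcription factor, was lower (7.39, 8.86 and 8.63). BID, a link between death receptors and mitochondria, was 2.80-fold below the nearer reference (7.53, 9.01 and 9.26). BIK, also a BH3-only protein, was at 6.94 in N87-TR1, at least 1.68-fold higher than in references not above background. BIK was at 6.80 in N87-TR3, and its call was lost in 4 of 11 other settings.

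Genes high in all resistant lines but not in NCI-N87 were also examined without regard to a call. IGFBP5, a binding protein of insulin-like growth factors, was at 14.58, 14.44 and 14.87 in N87-TR1, N87-TR2 and N87-TR4. The RNA-binding protein LIN28B was at 11.61, 12.15 and 11.50 in the same order. Both were undetected in NCI-N87, at 4.99 and 4.74. The drug exporter ABCB1 was at 8.64, 9.33 and 8.04, and its gap between the references covered N87-TR1.

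Differences were not spread evenly over the chromosomes. On chromosome 5 the median of 520 genes was -0.22 against N87-TR2 and -0.22 against N87-TR4, with 0.01 between the references, and 60.4% of its genes were below both references, where 37.8% of all genes were. On chromosome 16 the median of 519 genes was 0.24 against N87-TR2 and 0.21 against N87-TR4, with -0.07 between the references, and 59.3% were above both, where 36.4% of all genes were. Chromosome 5 held 17 of the lower calls (3.27% of its genes), STING1, MBLAC2, HMGCS1 and PLK2 among them, and 6 higher calls. Chromosome 16 held 20 of the higher calls (3.85%), with MPG, TUBB3, PRRT2, IRF8, CDH1, CDH3 and CORO1A among them, and 2 lower calls. Other chromosomes had shares near these, such as 15 lower calls on chromosome 10 (3.22%) and 10 higher calls on chromosome 20 (3.18%). Chromosome 19 held 23 higher calls (2.95%). N87-TR3 differed from the references by -0.08 on chromosome 5 and 0.41 on chromosome 16.

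**Figure D4:**
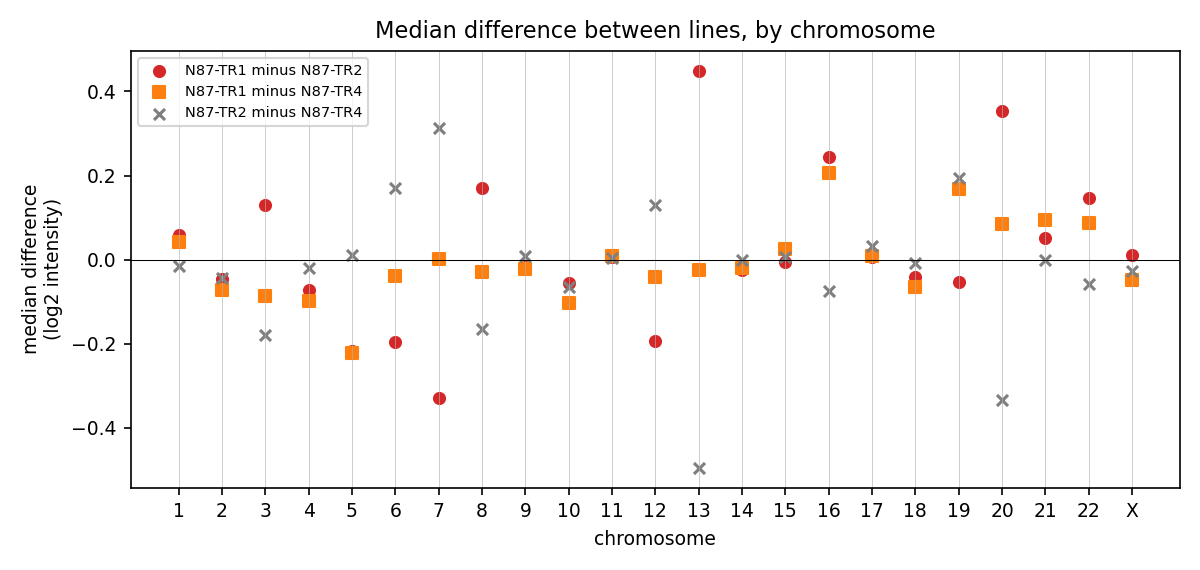
Median difference over the tested genes of each chromosome, in log2 intensity, for each pair of the 3 lines. On chromosomes 5 and 16 both differences of N87-TR1 lie on the same side while the references are near each other, and on chromosomes 7, 13 and 20 the outlying points involve N87-TR2.

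On chromosomes 7, 13 and 20, N87-TR1 differed from N87-TR2 (medians -0.33, 0.45 and 0.35) while its medians against N87-TR4 were 0.00, -0.03 and 0.08, so that on those chromosomes N87-TR2 was the line apart. Neighbouring genes were then grouped in blocks of at least 40, a grouping chosen after the chromosome values were seen. Of 13 blocks on chromosome 5, 12 had a median below 0 against both references, ranging from -0.36 to -0.10 against N87-TR2 and from -0.39 to 0.01 against N87-TR4. All 12 blocks on chromosome 16 were above 0 against both, from 0.03 to 0.56 and from 0.05 to 0.47. Within each quartile of the GC share of the upstream windows, the median was from -0.26 to -0.17 on chromosome 5 and from 0.12 to 0.24 on chromosome 16.

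**Figure D5:**
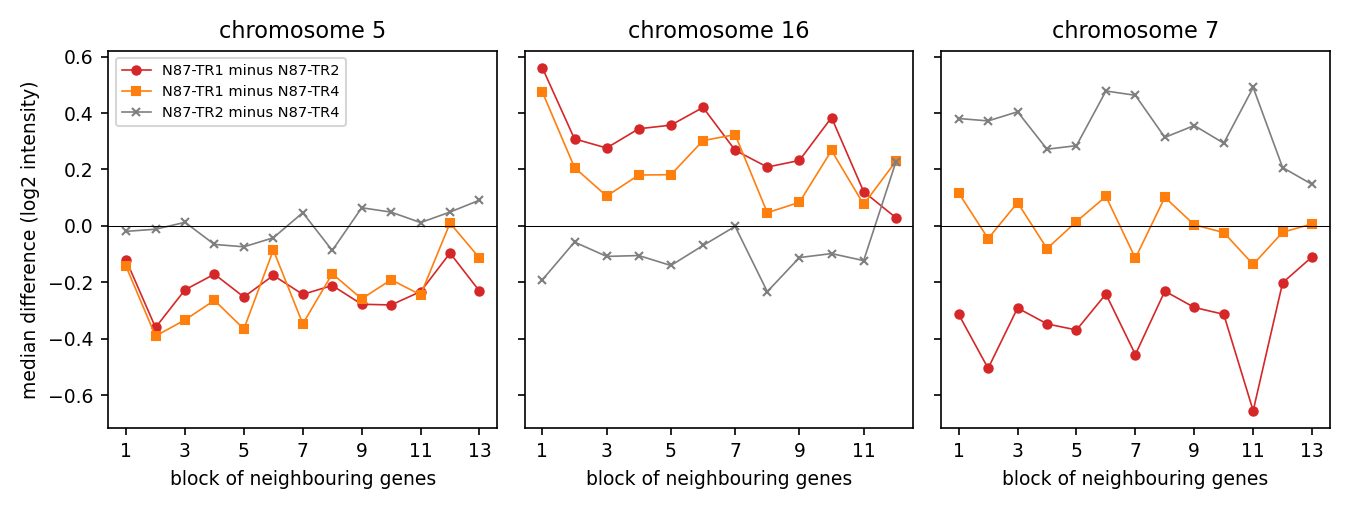
Median difference (log2 intensity, vertical axis) of successive blocks of at least 40 neighbouring genes along chromosomes 5, 16 and 7 for each pair of the 3 lines. On chromosome 5, 12 of 13 blocks are below 0 against both references, on chromosome 16 all 12 are above 0, and on chromosome 7 all 13 are below 0 against N87-TR2 while those against N87-TR4 lie on both sides of 0.

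At a finer scale, 4 runs of 3 genes called in one direction were found, in which up to 5 uncalled tested genes could lie between neighbours. In the first 3 described, 5 of 7, 7 of 10 and 5 of 7 tested genes of the span lay on the side of the calls. On chromosome 11, CDKN1C, PHLDA2 and ART5 were higher within 755 kb. CDKN1C, an imprinted inhibitor of cyclin-dependent kinases, was at 6.83 in N87-TR1 and not above background in the references. ART5, an ADP-ribosyltransferase, was at 7.72 against 6.44 in N87-TR4 and an undetected 5.59 in N87-TR2. On chromosome 13, C1QTNF9B, AMER2 and SHISA2 were higher. SHISA2, which holds back maturation of FGF and WNT receptors in Xenopus, was at 12.79 against 11.22 and 11.62, with an undetected 6.31 in NCI-N87. On chromosome 4, NSG1, CRMP1 and PPP2R2C were higher within 1934 kb, although the call of NSG1 was lost in 6 of 12 other settings, and ENPEP, ANK2 and TRAM1L1 were lower within 6607 kb, where all 11 genes tested in the span lay on the lower side of the reference mean. ENPEP, aminopeptidase A, was at 7.60 against 9.28 and 8.92, and ANK2, a membrane adaptor, was at 6.41 against 8.07 and 7.87. TRAM1L1 was not detected in N87-TR1 (5.67) or N87-TR3 (5.03). Its bound was only at least 1.48-fold, and its call was lost in 5 of 11 other settings.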

How the data were processed

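Total RNA of 5 cell lines was hybridised to Illumina BeadChips, 1 array per line. The authors deposited a table of 47318 probes with a signal intensity per array, linear and not normalised, and a detection p-value beside each, per the file headers. GenomeStudio is named without a version in the submitters' processing notes. The authors' processed intensity table, made by a method not given in the sources used here, served as an alternative. Columns not used numbered 0.

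Probes were named through the platform annotation: 30111 had 1 symbol, 8 several and 17199 are unnamed here, and 30072 were updated by gene ID through RefSeq GRCh38.p14. Intensities of all 5 arrays went through neqc (offset 16) of limma 3.58.1 in R 4.3.3. The detected probe with the highest mean stood for a gene. The number of arrays limits precision.

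The members, gene lists and rules were chosen with earlier results of these data known. Named were the 15 highest and 15 lowest genes measured on all 3 arrays, the 8 of each direction with the largest at-least fold, up to 4 called members per list, a set of receptors and markers, and runs of called neighbours; list members named without a call, and the genes beside the threshold, were picked after their values were seen. N87-TR1 was tested against N87-TR2 and N87-TR4 with lmFit and eBayes of limma (tested on simulated data first), and alternatives changed the background correction, scaling, offset, filter, probe rule, references and fold.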

Additional observations from a re-analysis of the deposited data

Results flagged for a closer look

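Probes without a gene name here were outside the comparison, and 4571 of them were detected on at least 1 of the 3 arrays. Of these, 75 were higher (1.64%) and 66 lower (1.44%) in N87-TR1 by the gap rule, close to the shares among named genes. The probe farthest above both references was at 9.66 in N87-TR1, 6.50 in N87-TR2 and 6.86 in N87-TR4, with 8.25 in N87-TR3 and 5.03 in NCI-N87. The next was at 10.16 in N87-TR1, 7.60 in N87-TR2 and 8.10 in N87-TR4. Both are signals in data that no comparison used.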

How the results depend on the processing

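Counts of the gap rule, 188 higher and 171 lower, changed with several settings. They were 44 and 31 without background correction, 101 and 67 with an offset of 50, 47 and 30 on the authors' processed values, 82 and 90 with detection required on all 3 arrays, and 5 and 6 at 4-fold. Counting N87-TR3 as a further reference left 68 and 84. Leaving out 1 reference line at a time gave 387 to 561 higher and 397 to 410 lower genes, the larger counts without N87-TR4. Cyclic loess, 75th percentile scaling, normalising the 3 arrays alone, no detection filter and the mean of probes kept both counts within 1.5 times. The limma test passed 0 genes in all 13 settings, with 498 to 2083 genes at an unadjusted p under 0.05. Of 95 named genes with a call, all kept their sign in every setting run, and 21 kept their call in all of them, while 23 lost it in at least 4. Leaving out N87-TR2 or N87-TR4 cannot change the sign or the call of a called gene. Those settings thus say nothing about how firm a call is. The settings that changed only the detection filter kept the same levels, so they could only change the probe used or drop the gene. The mean of probes could not move a gene with no other detected probe. All are counted, where run, among the other settings given for single genes, so fewer settings than those totals could lose a call. The call was lost for 57 without background correction, 54 on the authors' values and 45 with N87-TR3 as a reference. The medians of chromosomes 5 and 16 ranged from -0.24 to -0.11 and from 0.11 to 0.24 over the settings. A stricter filter or fold leaves fewer genes to call. By the form of the rule, a further reference can only remove calls, and leaving out a reference can only add them. The cause of the other changes was not tested. No paired analysis was possible because each line is a group of 1 array and the lines share fewer than 2 replicate numbers. Signal near background limits the genes given only as bounds.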

Other observations

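Some of the calls in lists not described above are given one by one, as values. Also called, with levels not given, were IFI30, AKR1C2, CACNA1G and GAGE12J, higher, and PCDH9 and PLAGL1, lower. The higher genes among these were not above background in either reference. Calls of GAGE12J, PCDH9 and PLAGL1 were lost in 4 other settings each. Axon guidance genes held 2 higher and 0 lower calls of 35, HOX genes 0 and 1 of 26, stem cell genes 1 and 0 of 13 and TGF-beta and BMP genes 1 and 1 of 35, beside 1.6% and 1.46% over all genes. SEMA3F, a secreted guidance cue, was at 7.88 in N87-TR1 and 6.24 in N87-TR2, was not above background in N87-TR4 (5.75), and was at 7.29 in N87-TR3 and 8.23 in NCI-N87. NTN1, the guidance cue netrin-1, was 2.06-fold above the nearer reference (7.68, 6.41 and 6.64), and its call was lost in 5 of 12 other settings. HOXD8, a homeobox transcription factor, was not detected in N87-TR1 (5.95) and was at 7.28 and 7.41 in the references. It was also not detected in N87-TR3 (5.96) or NCI-N87 (4.87), and its call was lost in 4 of 11 other settings. CD24, a surface glycoprotein, was at 10.43 in N87-TR1, near the 10.54 of NCI-N87, against 9.05 and 9.11. FST (follistatin), an activin antagonist, was not detected in N87-TR1 (5.81) and was at 7.20 and 6.88 in the references. The call of FST was lost in 4 of 11 other settings. CHRD (chordin), a BMP antagonist, was at 7.39 against 6.27 in N87-TR4 and an undetected 5.81 in N87-TR2.

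The list of proteases, inhibitors and serpins held 2 higher and 1 lower call of 21 tested. The proteases ADAM19 (8.69, 7.25 and 7.42) and MMP16 (8.05, 6.57 and 7.03) were higher, and SERPINH1, a collagen chaperone of the serpin family, was lower (8.16, 9.38 and 9.29). The call of MMP16 was lost in 5 of 12 other settings. HBA2, a globin gene, was at 8.26 in N87-TR1 and 7.91 in N87-TR3 and not above background in N87-TR2 (6.05), and signal of its near-identical copy HBA1 cannot be told apart from it. RBP7, a retinoid-binding protein, was at 7.42 in N87-TR1 and 6.99 in N87-TR3, with 6.20 in N87-TR4 and an undetected 5.13 in N87-TR2, and its call was lost in 5 of 11 other settings.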
